A study of Mus musculus with 18 samples.

Results

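The genes described here are 35 mouse genes of ribosome biogenesis and the nucleolus, many of them known in other systems as targets of the transcription factor Myc. They were chosen by name, with earlier results of these data known. Each was measured by its brightest probeset that is annotated to that symbol alone. All 35 were among the 18194 genes measured, and all 35 were among the 14505 genes bright enough to be tested, so no member was lost to the filter on low values. Total RNA of bone marrow from 18 C57Bl6 mice was hybridised to Affymetrix arrays, 1 array per mouse. The 6 CCAT2-GT mice form the DRAI+ group, the DRAI- group of 8 is made up of 4 CCAT2-G and 4 CCAT2-T animals, and 4 mice were wild type (WT). Per the labels, the engineered animals overexpress CCAT2-G or CCAT2-T throughout the body. CCAT2 is a long noncoding RNA described in human cancer. The labels do not spell out what DRAI status is, do not give the promoter, the ages or the sexes, and do not say how many founder lines were used. All values below are deposited log2 expression values, and all differences are log2 differences, so that a difference of 1 is a doubling.

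A cell that grows needs new ribosomes. RNA polymerase I transcribes the ribosomal RNA precursor in the nucleolus, small nucleolar ribonucleoproteins (snoRNPs) modify it, and ordered sets of assembly factors trim and fold it into the small and the large subunit. Myc is known to raise transcription of many genes of this pathway by binding, with Max, to E-box motifs near their start sites, and in bone marrow the pathway is most active in proliferating precursors. No protein binding was measured here. On bulk RNA, fewer cells of a type and less RNA per cell cannot be told apart.

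Promoter sequences are shown for 4 of the members described in detail below, because E-boxes are the motif through which the group is linked to Myc. RefSeq windows on mouse build GRCm38.p6, from 250 bases before to 50 bases after the transcript start, were at hand for 30 of the 35 members. The 5 others (Bop1, Fbl, Npm1, Rrp12 and Srm) had none in the table used. The windows were searched on both strands for the canonical E-box CACGTG, which is its own reverse complement, and for the variant CACGCG, which shares 5 of its 6 letters. The sequences run 5′ to 3′ along the gene's own strand, and capitals mark the motif on either strand. Apex1 (chr14:50924699-50924998, plus strand) held 3 canonical E-boxes. Nolc1 (chr19:46075597-46075896, plus strand) and Nop16 (chr13:54590025-54590324, minus strand) each held 1 variant, that of Nolc1 on the opposite strand. Dkc1 (chrX:75095604-75095903, plus strand) held neither motif.
Apex1: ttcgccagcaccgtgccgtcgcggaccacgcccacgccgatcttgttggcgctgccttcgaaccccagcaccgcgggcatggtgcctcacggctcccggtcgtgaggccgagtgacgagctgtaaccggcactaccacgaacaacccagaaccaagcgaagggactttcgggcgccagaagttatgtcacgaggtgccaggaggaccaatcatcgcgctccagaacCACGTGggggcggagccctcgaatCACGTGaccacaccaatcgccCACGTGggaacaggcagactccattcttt
Nolc1: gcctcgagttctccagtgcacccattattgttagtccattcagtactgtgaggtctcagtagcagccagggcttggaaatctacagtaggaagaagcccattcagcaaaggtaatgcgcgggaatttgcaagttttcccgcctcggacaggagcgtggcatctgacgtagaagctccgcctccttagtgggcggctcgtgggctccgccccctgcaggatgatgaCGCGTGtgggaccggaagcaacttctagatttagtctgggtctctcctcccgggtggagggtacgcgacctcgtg
Nop16: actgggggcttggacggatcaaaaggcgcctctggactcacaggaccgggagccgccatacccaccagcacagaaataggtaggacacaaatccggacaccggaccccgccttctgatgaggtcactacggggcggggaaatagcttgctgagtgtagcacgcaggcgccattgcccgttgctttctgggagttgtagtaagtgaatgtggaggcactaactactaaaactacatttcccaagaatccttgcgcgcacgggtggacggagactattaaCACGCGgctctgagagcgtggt
Dkc1: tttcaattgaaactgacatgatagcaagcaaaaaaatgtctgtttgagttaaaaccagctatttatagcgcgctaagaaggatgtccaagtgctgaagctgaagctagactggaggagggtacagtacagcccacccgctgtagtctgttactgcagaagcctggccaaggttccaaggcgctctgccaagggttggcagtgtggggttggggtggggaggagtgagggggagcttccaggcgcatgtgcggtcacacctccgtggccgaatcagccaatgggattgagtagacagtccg

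The canonical E-box was in the windows of 7 of 30 members (23.3%), namely Apex1, Mybbp1a, Nop2, Pes1, Tsr1, Utp20 and Wdr43. Among all 27025 genes with a window the share was 8.09%, and among the 11617 tested genes with a window it was 10.9%. The variant was in 10 of 30 members (33.3%), against 10.5% of all genes and 17.9% of tested genes. At least 1 of the motifs was found in 15 of 30 members, against 17.2% of all genes and 26.6% of tested genes. In Apex1 the 3 matches began 24 bases before the start, at the start itself and 21 bases after it. Mybbp1a, a nucleolar protein named for binding Myb, and Pes1, a large-subunit factor, held both motifs. A match describes the letters of a window and is not a measured binding site.

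**Figure D1:**
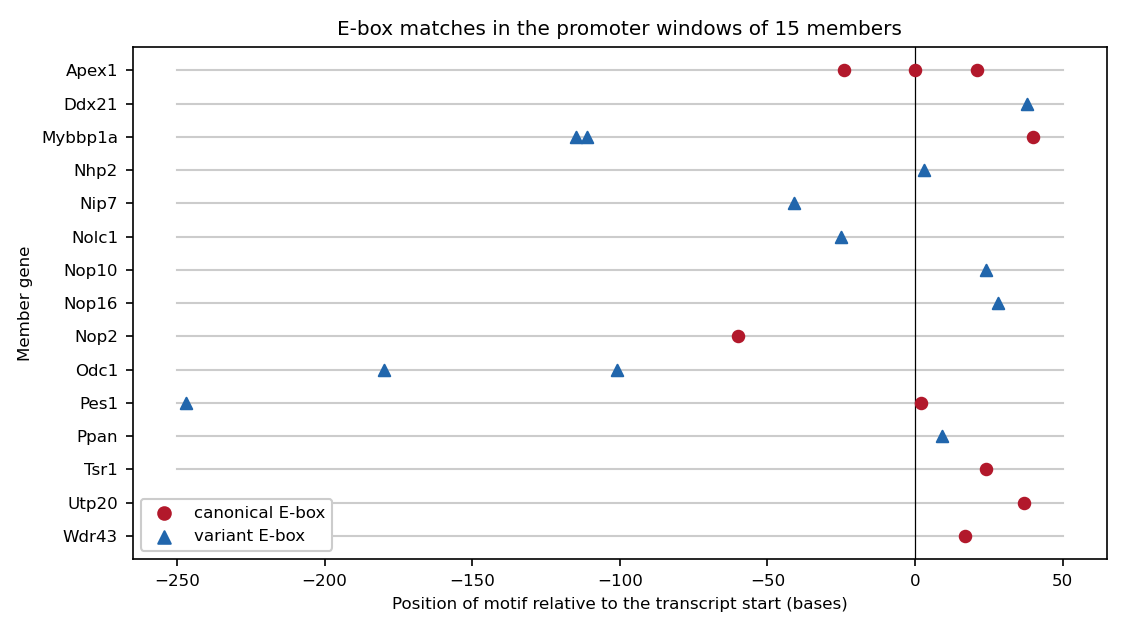
Positions of E-box matches in the promoter windows of the 15 members that hold at least 1, with the gene on the vertical axis and the distance of the motif's leading base from the transcript start, in bases, on the horizontal axis. Circles are the canonical E-box and triangles the variant. Canonical matches lay between 60 bases before and 40 bases after the start.

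The arrays were alike in level and differed in spread. Array medians ran from 4.27 to 4.40, and the interquartile range from 2.90 to 3.36. On 5 arrays (CCAT2-G 1, CCAT2-T 1 and 2, and WT 1 and 2) it was below 3.1, and these are called narrow arrays below. No CCAT2-GT array was among them. The tissue label was checked against marker lists. Over the 18 mice, secondary-granule neutrophil genes averaged 10.7 to 11.9 and erythroid genes 9.36 to 10.3, against 6.13 to 6.20 for all genes tested. Skeletal muscle genes averaged 4.40 to 6.57. Among other arrays that stood apart, 3 were rich in stromal transcripts (CCAT2-GT 4 and 6, and WT 4), and 4 had Xist above 7 (CCAT2-GT 2, 3 and 5, and CCAT2-T 3). In these 4 Xist was 10.71 to 12.02 and the Y-linked Eif2s3y 2.14 to 2.32, the pattern of female mice. Eif2s3y was 6.96 to 7.93 on the other arrays. No WT or CCAT2-G array had the female pattern, so sex was uneven between the groups compared.

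The comparison of DRAI+ with WT marrow asks whether the ribosome biogenesis genes differ in CCAT2-GT mice. Of the 35 members, 32 had a higher mean in DRAI+ mice than in WT mice and 3 a lower one (Odc1, Nip7 and Rrp9), with a median difference of 0.13. Of all genes tested, 49.5% were higher, with a median difference of -0.0017. The differences were small, from -0.09 for Odc1 to 0.40 for Nop16, and 0 of 35 members passed an adjusted p of 0.05 in limma, which called 0% of all genes. At an unadjusted p below 0.05, 0 of 35 members passed, against 2.63% of all genes. The direction was therefore shared while no single member could be told from the spread between mice. Without the 5 narrow arrays the median difference was 0.07, with 22 members higher and 13 lower, and with the narrow arrays as a block it was -0.01, with 15 higher. Without the 4 arrays with Xist above 7 it was 0.105, with 31 higher and 4 lower.

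RNA polymerase I was represented by Polr1a and Polr1b, its largest subunits. Polr1b was 4.93 at its lowest, 5.17 at the median and 5.46 at its highest in DRAI+ mice. The CCAT2-G mice had 4.81, 4.90, 5.03 and 4.70, the CCAT2-T mice 5.09, 4.83, 5.02 and 5.32, and the WT mice 4.80, 4.94, 5.07 and 5.07. The groups overlapped, and the DRAI+ minus WT difference was 0.21 (SE 0.12, adjusted p = 1.00 in limma). Polr1a differed by 0.02 (SE 0.18). These subunits were the only role group with all members lower in CCAT2-G than in WT mice (a median of -0.10). Other Polr1a probesets past the filter differed by 0.05 and -0.03 in that comparison. Polr1b was at its lowest in CCAT2-G 4, the mouse with the highest values for most other members.

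The core proteins of the box C/D snoRNPs, which guide methylation of ribosomal RNA, are fibrillarin (Fbl, the methyltransferase), Nop56 and Nop58. Fbl was 9.08 at its lowest, 9.30 at the median and 9.41 at its highest in DRAI+ mice. It was 8.69, 9.37, 9.34 and 9.49 in CCAT2-G mice, 8.70, 8.65, 8.64 and 9.40 in CCAT2-T mice, and 8.84, 9.01, 9.27 and 9.18 in WT mice. The DRAI+ values overlapped the upper part of the WT range, and 4 mice, 3 of them CCAT2-T, lay between 8.64 and 8.70. The difference from WT was 0.21 (SE 0.18, adjusted p = 1.00 in limma). Nop56 differed by 0.09 and Nop58 by 0.06. Fbl rests on a probeset that can also bind related transcripts.

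Box H/ACA snoRNPs direct pseudouridylation and hold dyskerin (Dkc1, the catalytic subunit), Nhp2 and Nop10. Dkc1 was 8.50 at its lowest, 8.81 at the median and 9.32 at its highest in DRAI+ mice. Values were 8.66, 9.39, 8.87 and 9.22 in CCAT2-G mice, 8.50, 8.65, 9.06 and 9.10 in CCAT2-T mice, and 8.50, 8.54, 8.90 and 8.83 in WT mice. The groups shared most of their range, with a difference from WT of 0.14 (SE 0.17, adjusted p = 1.00 in limma), and both other Dkc1 probesets had the opposite sign (-0.05 and -0.0055). Without the narrow arrays the difference was -0.03. Nhp2 differed by 0.18 and Nop10 by 0.09.

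Nucleolin (Ncl), nucleophosmin (Npm1) and Nolc1 are abundant nucleolar phosphoproteins with chaperone roles in ribosome assembly. Npm1 was 10.45 at its lowest, 10.73 at the median and 11.00 at its highest in DRAI+ mice. It was 10.38, 10.95, 10.70 and 10.99 in CCAT2-G mice, 10.40, 10.28, 10.70 and 10.69 in CCAT2-T mice, and 10.40, 10.41, 10.74 and 10.80 in WT mice. All 5 narrow arrays lay below all 13 others, and within the wider arrays the WT values sat inside the DRAI+ range.

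Ncl was 10.43 at its lowest, 10.62 at the median and 11.19 at its highest in DRAI+ mice. It was 10.35, 10.88, 10.81 and 11.05 in CCAT2-G mice, 10.17, 10.41, 10.48 and 10.75 in CCAT2-T mice, and 10.41, 10.54, 10.94 and 10.78 in WT mice. Nolc1 was 6.96, 7.07 and 7.56 at its lowest, median and highest in DRAI+ mice. It was 6.71, 7.21, 7.28 and 7.59 in CCAT2-G mice, 6.50, 6.63, 6.54 and 7.20 in CCAT2-T mice, and 6.74, 6.88, 7.13 and 7.20 in WT mice. In all 3 genes the DRAI+ and WT values overlapped. The differences from WT were 0.15 (SE 0.15) for Npm1, 0.04 (SE 0.17) for Ncl and 0.21 (SE 0.20) for Nolc1, each with an adjusted p of 1.00 in limma. Without the narrow arrays Npm1 differed by -0.03 and Ncl by -0.16. With all arrays included, the other Ncl probesets past the filter differed by 0.24, 0.19 and 0.13.

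Small-subunit assembly factors numbered 8: Nop14, Noc4l, Wdr43, Utp20, Heatr1, Rrp9, Tsr1 and Rrp12. Of these, 7 were higher in DRAI+ mice than in WT mice, by up to 0.28 (Tsr1, which accompanies the late precursor of the small subunit). Nop14, part of the small-subunit processome, was 6.08 at its lowest, 6.50 at the median and 7.07 at its highest in DRAI+ mice. It was 6.18, 6.34, 6.37 and 6.57 in CCAT2-G mice, 6.46, 6.54, 6.72 and 6.81 in CCAT2-T mice, and 6.23, 6.38, 6.32 and 6.20 in WT mice. The DRAI+ mice spanned the widest range, and the difference from WT was 0.20 (SE 0.16, adjusted p = 1.00 in limma). All 4 CCAT2-T values of Nop14 lay above all 4 WT values.

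Large-subunit factors numbered 10. They include Pes1, Bop1 and Wdr12, which act as 1 complex, the RNA methyltransferase Nop2, and the assembly factors Ftsj3, Nip7, Ebna1bp2, Nop16, Ppan and Rrp1b. In DRAI+ against WT mice 9 were higher and 1 lower (Nip7, -0.01). Nop16, which had the largest difference of all 35 members, was 6.43 at its lowest, 6.70 at the median and 6.89 at its highest in DRAI+ mice. It was 5.92, 6.44, 6.88 and 6.95 in CCAT2-G mice, 5.86, 6.02, 6.29 and 6.60 in CCAT2-T mice, and 6.01, 6.01, 6.69 and 6.47 in WT mice. Within the WT group the 2 mice at 6.01 were those on narrow arrays, and the other WT values lay inside the DRAI+ range. The difference was 0.40 (SE 0.21, adjusted p = 1.00 in limma). Without the narrow arrays it was 0.12, and with the narrow arrays as a block it was 0.08, while the mean of all Nop16 probesets gave 0.26. The other Nop16 probeset in that mean averaged 3.06, below the filter on low values (3.30).

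The nucleolar regulators are nucleostemin (Gnl3), a GTP-binding protein of proliferating cells, Mybbp1a and the RNA helicase Ddx21. Gnl3 was 7.58 at its lowest, 7.80 at the median and 8.44 at its highest in DRAI+ mice. It was 7.58, 8.27, 7.97 and 8.59 in CCAT2-G mice, 7.43, 7.57, 8.25 and 7.96 in CCAT2-T mice, and 7.48, 7.54, 7.99 and 8.00 in WT mice. DRAI+ and WT ranges overlapped, with a difference of 0.20 (SE 0.23, adjusted p = 1.00 in limma) that was -0.04 without the narrow arrays. Mybbp1a differed by 0.10 and Ddx21 by 0.06.

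Polyamines, which bind RNA and are needed for growth, are made through ornithine decarboxylase (Odc1) and spermidine synthase (Srm), both textbook Myc targets. Srm was 8.00 at its lowest, 8.14 at the median and 8.53 at its highest in DRAI+ mice. It was 7.75, 8.45, 8.23 and 9.00 in CCAT2-G mice, 7.30, 7.65, 7.65 and 8.28 in CCAT2-T mice, and 7.74, 7.85, 7.99 and 7.72 in WT mice. All 6 DRAI+ values lay above all 4 WT values, with the closest pair at 8.00 and 7.99, which was the case for 1 of 35 members and for 0.338% of all genes. The difference was 0.39 (SE 0.24, adjusted p = 1.00 in limma). Odc1 went the other way, with a difference of -0.09 (SE 0.15), and rests on a probeset that can bind other transcripts.

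Apex1, an endonuclease of base excision repair found in nucleoli, was 8.38 at its lowest, 8.41 at the median and 8.66 at its highest in DRAI+ mice. It was 8.44, 8.80, 8.28 and 9.00 in CCAT2-G mice, 8.43, 8.56, 8.46 and 8.54 in CCAT2-T mice, and 8.41, 8.58, 8.30 and 8.01 in WT mice. WT 4 was the low extreme and CCAT2-G 4 the high one. Like Odc1, Apex1 rests on a probeset that can bind other transcripts. The DRAI+ minus WT difference was 0.14 (SE 0.13, adjusted p = 1.00 in limma), and it was -0.0049 without the 3 stroma-rich arrays.

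**Figure D2:**
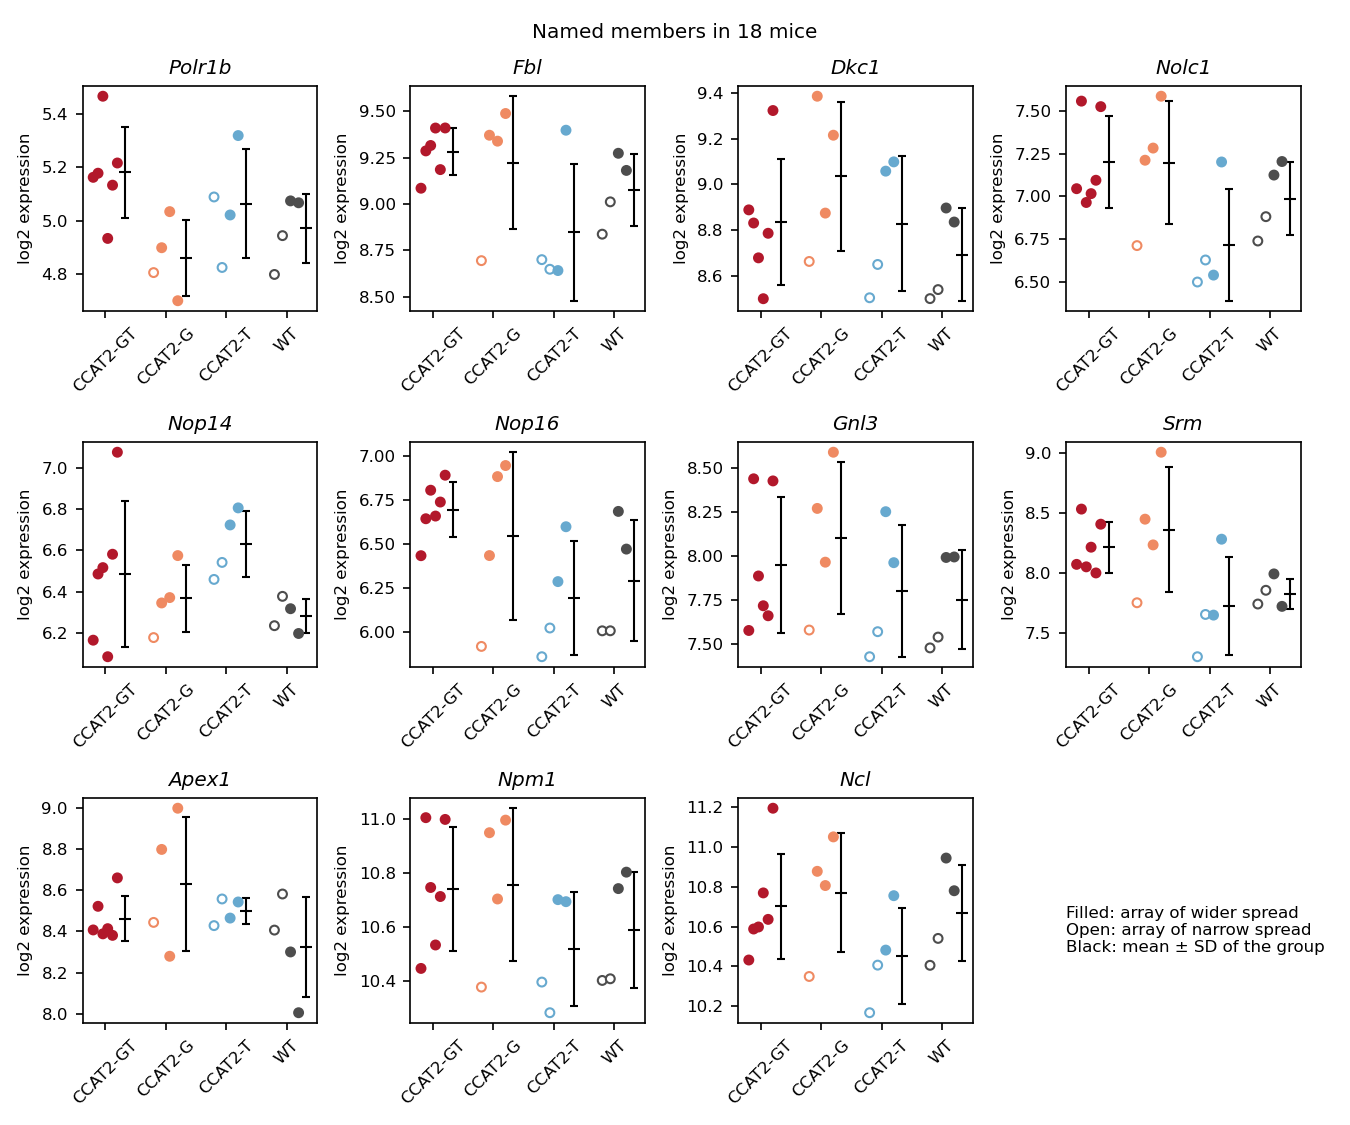
Log2 expression of the 11 members given in full, 1 panel a gene, with the groups CCAT2-GT, CCAT2-G, CCAT2-T and WT along the horizontal axis. Points are mice, open points are the 5 narrow arrays, and black marks are the group mean ± SD. The Nop16 and Npm1 panels show the open points below all filled points, and the Srm panel shows all CCAT2-GT points above the WT points.

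DRAI- mice were set against WT mice in the same fit. Here 25 members were higher and 10 lower, with a median difference of 0.08 against 0.00079 for all genes, of which 50.2% were higher. Again 0 of 35 passed the adjusted threshold (0% of all genes), and 3 had an unadjusted p below 0.05, against 1.36% of all genes: Noc4l (0.25), Ppan (0.32) and Mybbp1a (0.28). Members below that unadjusted level numbered 0 without WT 4, without the stroma-rich arrays or without the Xist-high arrays. With further quantile normalization they numbered 6. All 8 small-subunit factors were higher, while the RNA polymerase I subunits and 2 of the 3 phosphoproteins were lower. The median was 0.02 without WT 1 and 0.20 without the narrow arrays. Within the narrow arrays, which held 3 DRAI- and 2 WT mice, it was -0.06, with 10 members higher and 25 lower.

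DRAI+ mice set against DRAI- mice gave no shared direction. Of the members, 17 were higher and 18 lower, with a median difference of -0.0009, against -0.0072 for all genes, of which 48.3% were higher. Of the 35 members, 0 passed after adjustment (0% of all genes), and Polr1b alone had an unadjusted p below 0.05 (0.22, SE 0.10), against 9.57% of all genes. Without the narrow arrays, 6 members were higher and 29 lower, with a median of -0.12, and without CCAT2-G 4 the median was 0.09. The 3 comparisons share mice, so their values are not independent of each other.

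The alleles were compared in a fit with 4 genotype groups. In CCAT2-G against CCAT2-T mice, 30 of 35 members were higher and 5 lower (Nop14, Odc1, Polr1b, Polr1a and Noc4l), with a median difference of 0.24, against -0.0031 for all genes, of which 49.4% were higher. After adjustment 0 of 35 passed (0% of all genes). At an unadjusted p below 0.05, 10 members passed, all higher in CCAT2-G, against 6.29% of all genes in either direction and 4.21% in that direction. The smallest adjusted p was 0.743 in limma. Leaving out CCAT2-G 4 brought the median to 0.14, and leaving out CCAT2-G 1 brought it to 0.36. On the narrow arrays alone, which held 1 CCAT2-G and 2 CCAT2-T mice, it was 0.09.

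The members with the smallest p in CCAT2-G against CCAT2-T mice were named after their values were seen. Ftsj3, which methylates large-subunit precursor RNA, was 5.73, 6.21, 6.28 and 6.20 in CCAT2-G mice and 4.93, 5.65, 5.01 and 5.89 in CCAT2-T mice. The ranges met only through CCAT2-G 1, and the difference was 0.73 (SE 0.23). Wdr12 was 6.67, 7.43, 7.06 and 7.56 in CCAT2-G mice and 6.38, 6.68, 6.26 and 6.81 in CCAT2-T mice, a difference of 0.65 (SE 0.21), again with CCAT2-G 1 inside the CCAT2-T range.

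Nop58 was 7.96, 8.79, 8.11 and 9.01 in CCAT2-G mice and 7.64, 7.66, 7.98 and 7.88 in CCAT2-T mice, a difference of 0.68 (SE 0.22). The difference was 0.63 for Nhp2, 0.58 for Nip7, 0.55 for Ebna1bp2 and 0.64 for Srm. Nop56 and Nip7 did not overlap between the groups, which was the case for 2 of 35 members and for 1.16% of all genes. Nop56, the scaffold of box C/D particles, was 8.55, 9.12, 8.57 and 9.19 in CCAT2-G mice and 8.44, 8.31, 8.47 and 8.48 in CCAT2-T mice, with the nearest values 8.55 and 8.48. All 10 large-subunit factors were higher in CCAT2-G mice, with a median of 0.39, and all 3 box C/D proteins, with a median of 0.43. The small-subunit factors split into 6 higher and 2 lower, with a median of 0.17.

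Against WT mice, CCAT2-G mice had 32 members higher and 3 lower, with a median of 0.24 against 0.01 for all genes, of which 53.2% were higher. The members that passed the adjusted threshold numbered 0 (0% of all genes), and 2 had an unadjusted p below 0.05 (Srm 0.53 and Ppan 0.35), against 1.57% of all genes. The median was 0.12 without CCAT2-G 4 and 0.37 without CCAT2-G 1. CCAT2-T mice had 18 higher and 17 lower than WT mice, with a median of 0.01 against 0.0019 for all genes, of which 50.5% were higher. Again 0 members passed after adjustment (0% of all genes), and 2 did at an unadjusted p below 0.05, Noc4l with 0.27 and Ftsj3 with -0.49, against 3.11% of all genes. Another Noc4l probeset had the opposite sign (-0.17). Same-numbered CCAT2-T and WT mice deviated together, and with the replicate number as a block 723 genes and 3 members had an unadjusted p below 0.05, against 451 genes and 2 members without it. The members' median was the same in both fits. Noc4l and Nop14 lay wholly above the WT values, against 0.848% of all genes, and Nip7 wholly below them, against 0.841%. The 3 box C/D proteins and the 3 phosphoproteins were all lower in CCAT2-T than in WT mice, with medians of -0.23 and -0.21.

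**Figure D3:**
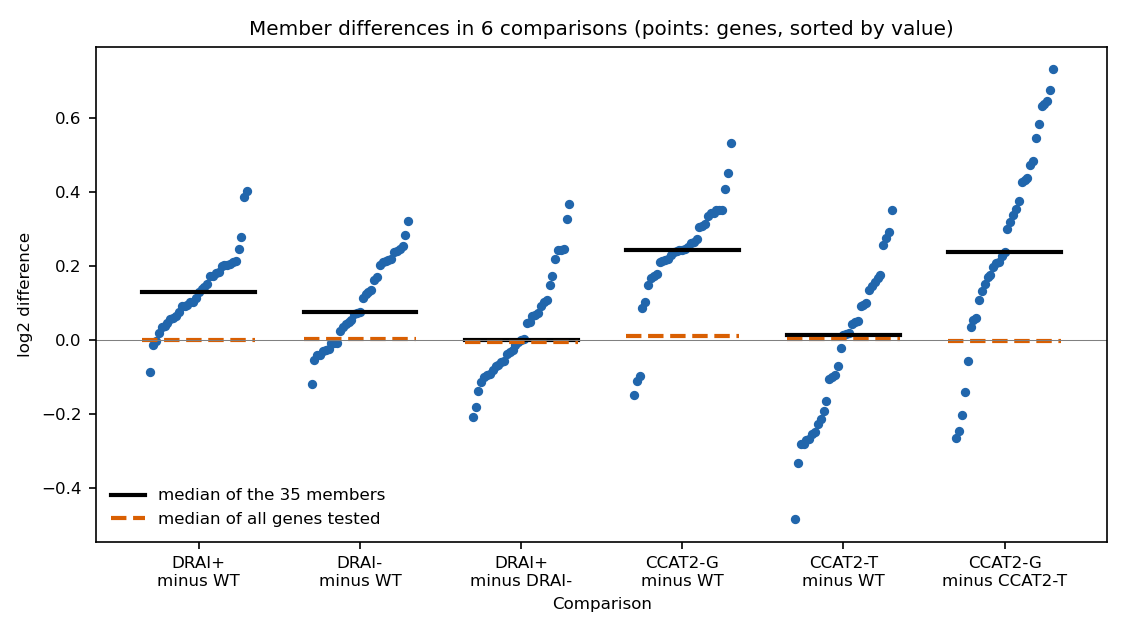
Log2 differences of the 35 members in 6 comparisons, each point 1 gene sorted by value. Solid bars mark the median of the members and dashed bars the median of all genes tested. The members' median lies at 0.13 in DRAI+ minus WT, at 0.24 in CCAT2-G minus WT and CCAT2-G minus CCAT2-T, and near 0 in DRAI+ minus DRAI- and CCAT2-T minus WT.

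The members were high or low together in individual mice. For each member the mean over all 18 mice was taken, and members above and below their own mean were counted in each mouse. In the CCAT2-GT mice, 8, 30, 17, 16, 10 and 28 of the 35 members lay above their mean, in replicates 1 to 6. In the CCAT2-G mice the counts were 5, 31, 19 and 32, in the CCAT2-T mice 8, 7, 15 and 24, and in the WT mice 4, 10, 21 and 16. Of all genes tested, 44.7% to 58.1% lay above their own mean in a mouse, against 11.4% to 91.4% of the members. Each of the 4 genotypes thus held mice with most members above their mean and mice with most below it. CCAT2-T 4, with 24 members above their mean, was also the mouse with 58.1% of all genes above theirs.

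CCAT2-G 4 was the highest of all 18 mice for 25 of 35 members, among them Srm (9.00), Heatr1 (8.39), Tsr1 (7.94) and Nop58 (9.01), while it was the highest for 8.22% of all genes. Its median deviation from the member means was 0.52. It was followed by CCAT2-GT 6 with 0.28, CCAT2-G 2 with 0.24 and CCAT2-GT 2 with 0.19. The lowest median deviations were -0.24 in CCAT2-T 1, -0.23 in WT 1 and -0.23 in CCAT2-T 2. CCAT2-T 1 was the lowest mouse for 9 members, including Ncl, Nolc1, Gnl3 and Srm, and for 10.1% of all genes, and CCAT2-T 2 for 6 members and 4.86% of all genes.

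WT 4 was the lowest mouse for 8 members, namely Utp20, Heatr1, Rrp9, Nop2, Bop1, Rrp1b, Mybbp1a and Apex1, and for 8.54% of all genes. In that same mouse Pes1 lay 0.43 above its mean. The skeletal muscle list was highest in CCAT2-T 1 and WT 4, with median deviations of 1.31 in CCAT2-T 1 and 1.85 in WT 4, and its part in these low values was not tested. Odc1 and Polr1a departed from the pattern as well, with Odc1 at its highest in CCAT2-G 1 and its lowest in CCAT2-G 3. The SD within genotype was 0.26 for the median member and 0.23 for the median gene, and the range over the 18 mice ran from 0.54 for Rrp9 to 1.70 for Srm.

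**Figure D4:**
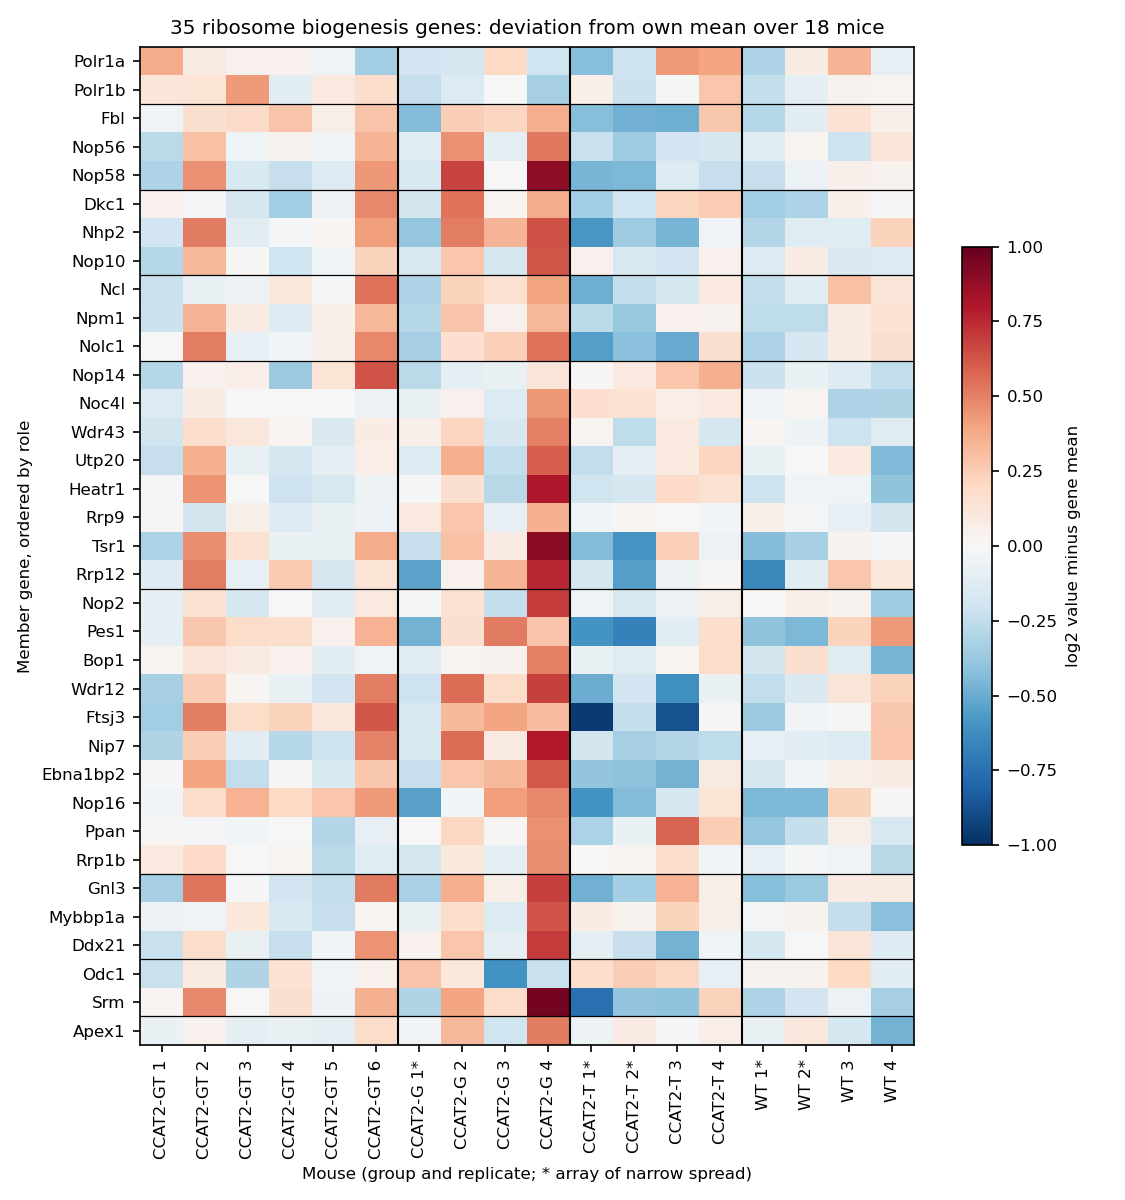
Deviation of each of the 35 members from its own mean over 18 mice (log2, red higher, blue lower), with members in rows ordered by role and mice in columns ordered CCAT2-GT, CCAT2-G, CCAT2-T and WT. Asterisks mark the narrow arrays. The CCAT2-G 4 column is the reddest, with 25 members at their highest, and the columns of the narrow arrays are mostly blue.

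The narrow arrays and the low mice largely coincided. The 5 narrow arrays had 4 to 10 members above their mean, and 30 of 35 members averaged lower on them than on the 13 wider arrays, against 52.4% of all genes. On wider arrays, CCAT2-GT 1 with 8 and CCAT2-GT 5 with 10 members above their mean were as low. The median of narrow minus wider was -0.28 for the members and -0.02 for all genes. Npm1, Pes1 and Nop16 had all narrow arrays below all wider ones, which is 3 of 35 members, against 2.83% of all genes. Pes1 averaged 6.16 on narrow and 6.88 on wider arrays, and Nop16 5.97 on narrow and 6.65 on wider arrays. Odc1 was among the 5 exceptions, with 10.7 on narrow and 10.5 on wider arrays. The labels name no batch. With these arrays as a block the members' median was 0.19 in CCAT2-G against CCAT2-T mice.

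Myc itself was 7.73 at its lowest, 8.08 at the median and 8.20 at its highest in DRAI+ mice. It was 7.85, 8.40, 7.77 and 8.68 in CCAT2-G mice, 7.31, 7.51, 8.16 and 8.17 in CCAT2-T mice, and 7.56, 7.70, 8.32 and 7.68 in WT mice. The groups overlapped. Myc differed by 0.21 (SE 0.22) between DRAI+ and WT mice and by 0.39 (SE 0.23) between CCAT2-G and CCAT2-T mice, and did not pass in either. Members with and without a canonical E-box in their window had medians of 0.10 (7 genes) and 0.09 (23 genes) in DRAI+ against WT mice, and of 0.20 and 0.30 in CCAT2-G against CCAT2-T mice.

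Other genes of the pathway were followed through lists. Of 135 further ribosome biogenesis genes, 129 were measured. In DRAI+ against WT mice 92 were higher and 37 lower, with a median of 0.05, and 0 passed after adjustment. By the rule for named genes, Tsr3, which modifies ribosomal RNA of the small subunit, differed by 0.23 (SE 0.11), and Nop53, a late large-subunit factor, by -0.18 (SE 0.10). In CCAT2-G against CCAT2-T mice 113 were higher and 16 lower, with a median of 0.23, and 35 had an unadjusted p below 0.05, all higher, against 6.29% of all genes in either direction and 4.21% higher. The wider list thus had the same sign as the 35 members in both comparisons, with a smaller median in DRAI+ against WT mice.

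Myc targets that work outside the nucleolus numbered 50 measured of 54. They were higher in DRAI+ than in WT mice in 41 cases, with a median of 0.12. Examples were the chaperone Set (0.28, SE 0.16) and lactate dehydrogenase A, Ldha (0.25, SE 0.15). In CCAT2-G against CCAT2-T mice 41 were higher, with a median of 0.20. Cytosolic ribosomal protein genes, the structural parts of the ribosome, were measured for 43 of 78 entries and tested for 42. Their median was 0.00077 in DRAI+ against WT mice (22 higher, 20 lower) and 0.09 in CCAT2-G against CCAT2-T mice (31 higher, 11 lower). Of 29 mitotic genes, 4 were higher in DRAI+ than in WT mice, with a median of -0.09, and 21 were higher in CCAT2-G than in CCAT2-T mice, with a median of 0.10.

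**Figure D5:**
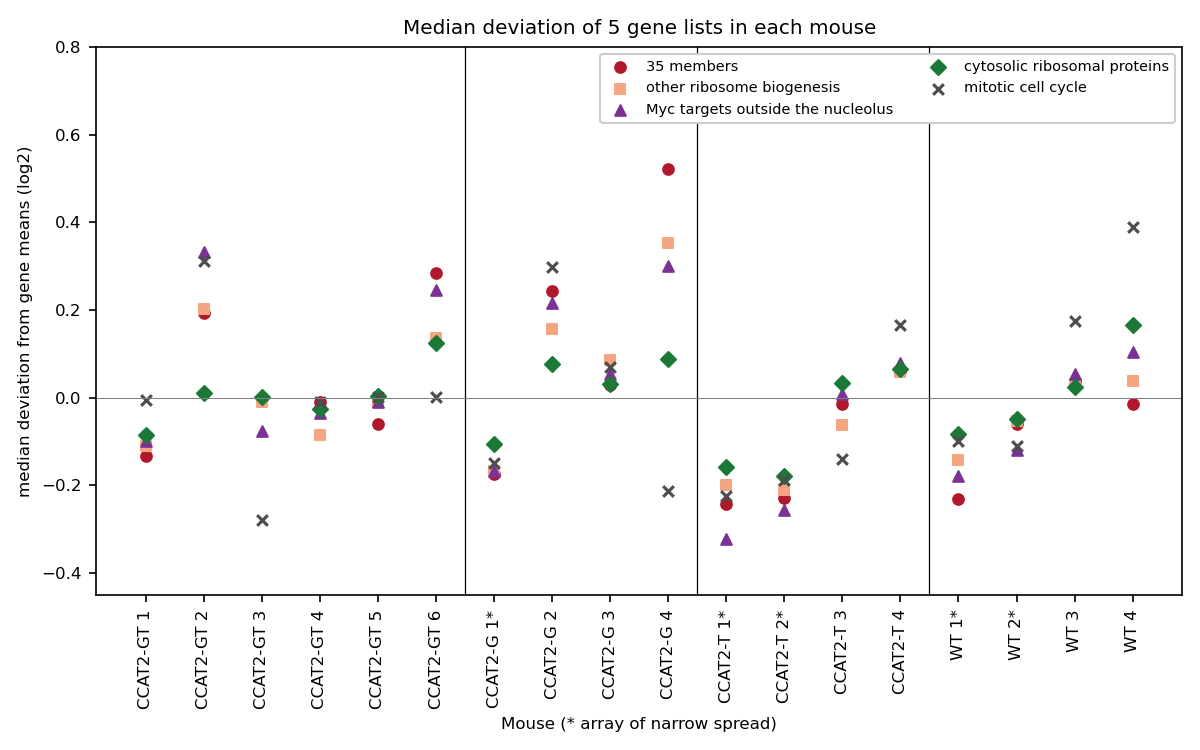
Median deviation from gene means (log2, vertical axis) of 5 gene lists in each of 18 mice (horizontal axis), with groups separated by vertical lines and narrow arrays marked by asterisks. Circles are the 35 members. In CCAT2-G 4 the members stand at 0.52 and the mitotic list at -0.21, whereas in WT 4 the mitotic list stands at 0.39 and the members at -0.01.

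Markers of cell types also differed between the groups compared, and their part in the result was not tested. In DRAI+ against WT mice, the 17 measured B-cell precursor genes had a median of -1.02 and were all lower, all 18 mature B-cell genes were lower (-0.88), and 14 of 17 monocyte and macrophage genes were higher, with a median of 0.32. Of the megakaryocyte and platelet genes 13 of 14 were higher (0.48), while all 24 erythroid and all 9 skeletal muscle genes were lower (-0.23 and -0.53). The mean level of the B-cell precursor list ran from 5.46 to 7.37 in DRAI+ mice and from 6.65 to 8.22 in WT mice. It was 8.22 and 8.18 in WT 1 and WT 2, which were on narrow arrays. In WT 3 and WT 4, on wider arrays, it was 6.98 and 6.65, inside the DRAI+ range. The mean level of the monocyte list ran from 7.74 to 9.15 in DRAI+ mice and from 7.62 to 8.49 in WT mice. In CCAT2-G against CCAT2-T mice, all 14 measured megakaryocyte and platelet genes were higher, with a median of 1.12, and 18 of 19 stromal genes, with a median of 0.52, while all 16 immediate-early genes were lower, with a median of -0.73. The megakaryocyte list ran from 7.33 to 8.68 in CCAT2-G mice and from 6.02 to 7.20 in CCAT2-T mice. CCAT2-GT 6 and CCAT2-G 4, where members were high, had the highest monocyte deviations, 1.23 and 0.67. Of the other mice where members were high, CCAT2-G 2 had a monocyte deviation of -0.13 and CCAT2-GT 2 had 0.20. On the 5 narrow arrays, where members were low, the monocyte deviation ran from -0.51 in CCAT2-T 2 to -0.11 in WT 2. CCAT2-GT 5 and CCAT2-T 4, with member deviations of -0.06 and 0.06, had monocyte deviations of 0.19 and -0.37. CCAT2-GT 3 and CCAT2-GT 4, with member deviations of -0.0015 and -0.0089, had monocyte deviations of 0.25 each. In CCAT2-G against WT mice all 18 mature B-cell genes were higher (0.26), and all 24 erythroid (-0.26), 16 immediate-early (-0.53), 9 skeletal muscle (-0.54) and 8 primary-granule genes (-0.24) were lower. In DRAI- against WT mice all 18 mature B-cell genes were higher (0.26), and all 14 megakaryocyte (-0.36), 9 skeletal muscle (-0.33) and 8 primary-granule genes (-0.27) were lower, as were 23 of 24 erythroid genes (-0.21). In CCAT2-T against WT mice all 14 megakaryocyte genes were lower (-1.07). None of these marker genes passed after adjustment (0% of all genes).

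For 23 members another probeset could be compared, 34 in all. In DRAI+ against WT mice 5 of these had the opposite sign to the probeset used (in Dkc1, Nip7, Polr1a and Wdr12). In CCAT2-G against CCAT2-T mice 7 did (in Bop1, Dkc1, Ebna1bp2, Heatr1 and Noc4l). For DRAI+ against DRAI- mice the number was 16, in 12 genes. It was 11 in DRAI- against WT mice, Noc4l among them, 13 in CCAT2-T against WT mice and 3 in CCAT2-G against WT mice. As with Fbl, the probesets used for Nhp2, Noc4l and Tsr1 can also bind related transcripts.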

How the data were processed

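Bone marrow was flash-frozen and total RNA was Trizol-extracted, labelled with biotin and hybridised to Affymetrix arrays, per the labels' protocols. The authors deposited log2 expression values for 45101 probesets on 18 arrays, made with RMA per the submitters' processing notes; its version is not given in the sources used here. RMA corrects background, normalizes quantiles and summarises probes, so differences in overall RNA amount are removed. There is no read depth on arrays, and precision is limited by how many there are.

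Of the probesets, 34958 had 1 gene symbol in the platform annotation, 932 several and 9211 none listed. Only the first kind was used. The brightest probeset stood for each of 18194 genes, and genes with a mean under the 30th percentile (3.30) were left out, which kept 14505. All 18 arrays entered each fit in limma 3.58.1 (R 4.3.3), by lmFit and a trended eBayes, with 3 groups for the DRAI comparisons and 4 genotype groups for the alleles. Tests were two-sided, and p-values were adjusted over all genes tested (Benjamini-Hochberg), and 0.05 was the threshold. The procedure was tested on simulated data. The members, the 20 gene lists (535 entries) and the tests were chosen with earlier results of these data known. The titles call the mice biological replicates. Same-numbered mice deviated together (correlation above 0.1) in 4 of 4 pairs of CCAT2-T and WT mice (0.19 to 0.574). Mice of different numbers were not correlated for comparison. In both of these groups the narrow arrays carry the same replicate numbers, and so do the wider arrays. The correlations therefore cannot tell pairing from shared array spread, and whether the numbers pair the mice was not tested. In the other group pairs fewer passed, 3 of 4 in CCAT2-G and CCAT2-T mice among them.

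Values per mouse are given for the member of smallest p in DRAI+ against WT within each role, and for Nop16, Srm, Npm1, Ncl and Fbl. For other lists up to 2 genes of smallest p are named, and Myc. Alternatives were array centring, further quantile normalization, other filters, the mean of probesets, eBayes without trend or robust, array weights, a fit of the pair of groups compared, 4 genotype groups for the DRAI comparisons, the replicate number as a block, narrow arrays left out or as a block, stroma-rich or Xist-high arrays left out, and each mouse left out. Fits within the narrow arrays were added after seeing the data.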

Additional observations from a re-analysis of the deposited data

Results flagged for a closer look

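In each genotype group the most extreme mouse of every member was compared with the nearest other mouse by Dixon's criterion. Of 140 such tests 9 (6.43%) were passed, and chance passes about 1 in 20. In the CCAT2-GT group, Heatr1 was 8.03 in CCAT2-GT 2 against 7.38 to 7.59 in the others, and Ppan was 6.22 in CCAT2-GT 5 against 6.43 to 6.53. In the CCAT2-G group, Polr1a was 6.34 in CCAT2-G 3 against 5.94 to 5.97, and Ftsj3 was 5.73 in CCAT2-G 1 against 6.20 to 6.28. In the CCAT2-T group, CCAT2-T 4 stood above its group for Fbl, with 9.40 against 8.64 to 8.70, and for Ebna1bp2, with 7.82 against 7.25 to 7.33. In the WT group, Nop10 was 9.74 in WT 2 against 9.53 to 9.54. WT 4 was low for Nop2, with 6.48 against 6.84 to 6.88, and high for Nip7, with 7.80 against 7.39 to 7.44.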

How the results depend on the processing

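Of the values that answer a comparison, 10 moved by more than the spread between replicates or, for counts, by over 1.5 times. For medians that spread was 0.19, the SD within genotype groups of each mouse's median member deviation. It exceeds the medians of 0.13 in DRAI+ against WT mice and 0.08 in DRAI- against WT mice. Those medians could vanish without counting as moved. Some medians changed sign as well. In DRAI+ against WT mice the sign turned in 1 of 15 alternatives other than leaving out a mouse (-0.015, narrow arrays as a block), and in DRAI- against WT mice in 1 of 16 (-0.057, within the narrow arrays). In DRAI+ against DRAI- mice it turned in 2 of 15, and in 7 of 14 with a mouse left out, and in CCAT2-T against WT mice in 5 of 15 and in 4 of 8. With array weights, 456 genes passed in DRAI+ against WT mice, among them 1 member, Nop16 (0.63). The members' median in CCAT2-G against CCAT2-T mice was then 0.45. In the fit with 3 groups the weights were largest for WT 2 (4.50), CCAT2-GT 5 (2.9) and WT 1 (2.38). WT 2 and WT 1 were narrow arrays, and CCAT2-GT 5 was a wider one. Without CCAT2-G replicate 3, 7 genes passed in DRAI+ against DRAI- mice. In CCAT2-G against CCAT2-T mice 1 gene passed with further quantile normalization, 1 with the filter at the 50th percentile, 1 without CCAT2-T replicate 1, and 8 within the narrow arrays. Within the narrow arrays, 9 genes passed in CCAT2-G against WT mice and the members' median was -0.059, where CCAT2-G had a single mouse; no DRAI+ mouse was on a narrow array, so this could not be run there. The cause was not tested.

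Leaving out each mouse gave a median of 0.09 to 0.15 in DRAI+ against WT mice, 0.02 to 0.14 in DRAI- against WT mice, -0.05 to 0.09 in DRAI+ against DRAI- mice, 0.12 to 0.37 in CCAT2-G against WT mice, and 0.14 to 0.36 in CCAT2-G against CCAT2-T mice, with 0 to 7 genes passing in DRAI+ against DRAI- mice, 0 to 1 in CCAT2-G against CCAT2-T mice and 0 in the others. In CCAT2-T against WT mice the median ran from -0.08 to 0.05. Among named members in DRAI+ against WT mice, the sign turned with the narrow arrays as a block for Fbl (-0.031), Dkc1 (-0.089), Nolc1 (-0.028), Gnl3 (-0.11), Npm1 (-0.061) and Ncl (-0.19). It turned without the narrow arrays for Dkc1 (-0.031), Gnl3 (-0.042), Npm1 (-0.032) and Ncl (-0.16), with array weights for Apex1 (-0.055), and without the stroma-rich arrays for Apex1 (-0.0049) and Ncl (-0.066). Leaving out 1 mouse at a time moved Ncl, at 0.04 in the reported fit, between -0.063 and 0.13, with the sign turned when WT 1 (-0.052), WT 2 (-0.0069) or CCAT2-GT 6 (-0.063) was left out. Within the narrow arrays Nop16 (-0.023) and Apex1 (-0.049) turned in CCAT2-G against CCAT2-T mice.

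The replicate block gave a median of 0.12 in DRAI+ against WT mice and -0.071 for Ncl, and it changed no call after adjustment. Between CCAT2-G and CCAT2-T mice, where 1 of 4 pairs did not pass, it took the members with an unadjusted p below 0.05 to 15, against 10 without it.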
